A study of Mus musculus with 6 samples.

Results

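The genes described here encode matricellular proteins of the heart, together with fibronectin. They are periostin (Postn), tenascin C (Tnc), osteopontin (Spp1), thrombospondin 4 (Thbs4), fibronectin (Fn1), the SPARC-like protein hevin (Sparcl1), cartilage intermediate layer protein (Cilp), collagen triple helix repeat containing protein (Cthrc1) and cartilage oligomeric matrix protein (Comp). They were chosen by name, as every probe set annotated with only that gene's symbol. Of the 9 genes, 8 had such a probe set, 10 probe sets in all, out of 18193 named genes with 34945 probe sets in the table. Spp1 had no probe set annotated to it and was not analysed here.

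Matricellular proteins are secreted into the extracellular matrix but serve less as scaffold than as signals, which bind to integrins, syndecans and collagen and so alter how cells attach, migrate and lay down matrix. Most are scarce in the resting adult heart and become abundant after injury or under pressure load, made largely by activated fibroblasts. Fibronectin is the provisional matrix glycoprotein that cells assemble into fibrils through integrins and on which collagen and several of these proteins are deposited.

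RNA from the apex of 6 hearts of male mice aged 6 to 7 weeks was measured, each on its own Affymetrix array. All 6 animals carried a floxed and a deleted (delta) allele of Fog2 (official symbol Zfpm2), which encodes a partner protein of GATA factors. In 3 of them a Cre recombinase transgene driven by the promoter of alpha myosin heavy chain, which is active in cardiomyocytes, was present (αMHC-Cre hearts), and 3 had no Cre (no-Cre hearts). The no-Cre hearts were therefore not wild type, and Cre was never present without the floxed allele, so the effects of Cre itself and of Fog2 loss cannot be told apart. The comparison asks which transcripts of these genes differ when Cre can delete Fog2 in cardiomyocytes. Because Cre acts in cardiomyocytes while most of the genes are products of other cells, differences in them are measured in the whole tissue.

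The medians of the 6 arrays were 5.72 to 5.81 in log2 units, and arrays correlated at 0.980 to 0.987 within groups and at 0.964 to 0.973 between groups over the tested probe sets. Zfpm2 had a pair of probe sets that moved in opposite directions. The dimmer read 5.46, 5.61 and 5.65 in αMHC-Cre hearts, against 6.34, 6.40 and 6.65 in no-Cre hearts, and the brighter read 10.71, 10.48 and 10.50 in αMHC-Cre hearts, against 8.86, 8.83 and 8.95 in no-Cre hearts. The sources used here do not say which part of the transcript each measures, and neither checks the deletion by itself. Measures of RNA quality separated the groups by little and in opposite directions, with a 3' minus 5' signal of Actb of 0.25 to 0.29 in αMHC-Cre hearts and 0.30 to 0.41 in no-Cre hearts, and of Gapdh of -0.07 to -0.04 in αMHC-Cre hearts and -0.14 to -0.08 in no-Cre hearts. Their part in the results below was not tested. Cardiomyocyte markers, which define the tissue, read near the top of the scale in all hearts, with a mean over 8 genes of 13.45 to 13.50 in αMHC-Cre hearts and 13.47 in no-Cre hearts.

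Postn, Fn1, Cilp and Comp rose in αMHC-Cre hearts, by 2.07-fold to 2.56-fold, while Thbs4 and Sparcl1 showed no difference past the threshold. Tnc and Cthrc1 read too low to be tested with the others. Values are log2 signals of a probe set, and differences are αMHC-Cre minus no-Cre hearts. The test was limma's moderated test on the 27022 probe sets left after the 40% with the lowest mean (under 5.16) had been set aside, with Benjamini-Hochberg adjusted p under 0.05 as the threshold. Of the 8 genes, 6 passed this filter, and of these 4 rose and 0 fell. Of all 13062 genes tested through their brightest probe set, 6.24% were called, made up of 4.2% higher and 2.04% lower in αMHC-Cre hearts. Of the 10 probe sets, 6 passed the filter and 4 were called, against 5.23% of all tested probe sets. For 4 of the 6 tested genes every αMHC-Cre heart lay above every no-Cre heart. Non-overlapping groups were found for 26.1% of all tested genes, and for 13.2% with αMHC-Cre hearts higher. The median difference was 1.06 over the 6 genes and -0.01 over all tested genes. Comp passed the filter only through its level in αMHC-Cre hearts, since its no-Cre mean of 5.14 lay under it. Among the other 5 tested genes 3 were called, 3 had groups that stood apart, and the median difference was 1.05. In whole tissue, more cells of a type and more RNA per cell cannot be told apart.

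**Figure D1:**
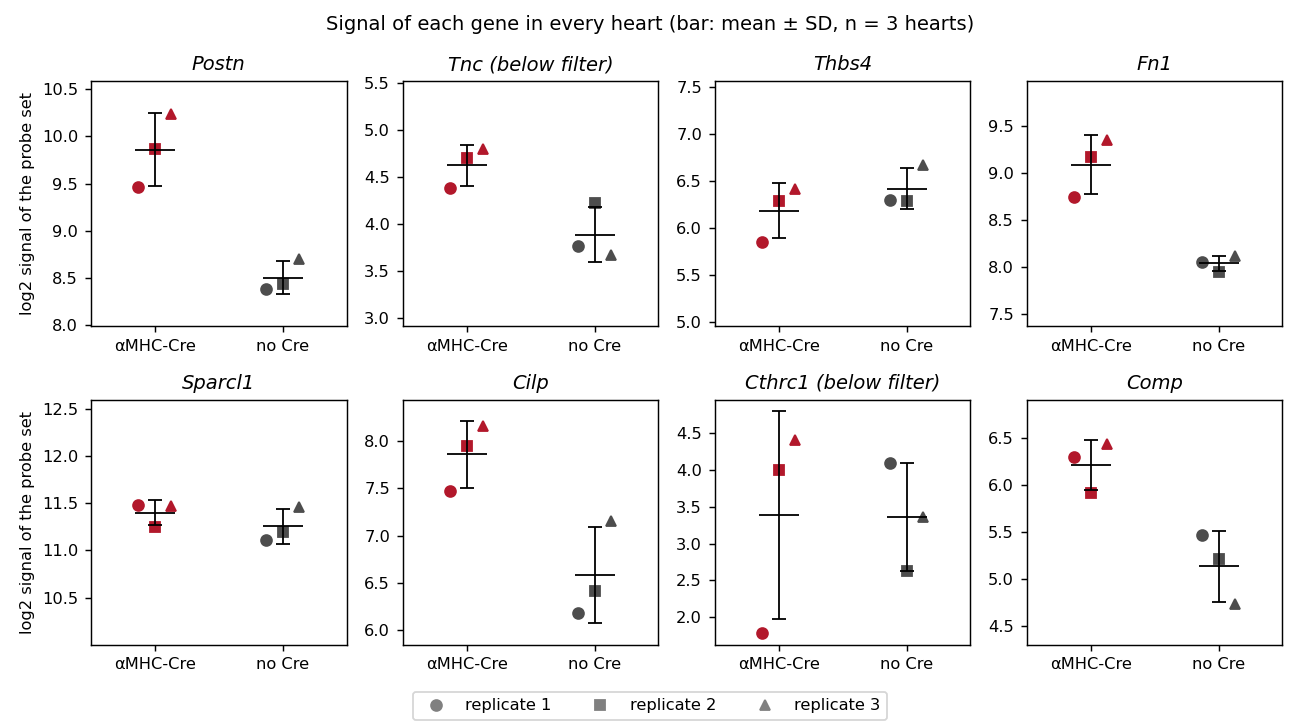
Log2 signal (vertical axes) of the brightest probe set of each of the 8 genes in 3 αMHC-Cre hearts (red, left) and 3 no-Cre hearts (grey, right), with bars for the mean and SD. For Postn, Fn1, Cilp and Comp every αMHC-Cre heart lies above every no-Cre heart, whereas for Thbs4, Sparcl1 and Cthrc1 the groups overlap.

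Periostin, which cross-links collagen and marks activated fibroblasts in the mouse heart, showed the highest fitted difference of the 6 tested genes. Postn read 9.46, 9.87 and 10.24 in αMHC-Cre hearts, against 8.38, 8.43 and 8.70 in no-Cre hearts. All 3 αMHC-Cre hearts stood above the no-Cre hearts, with 0.77 between the nearest hearts of the groups. The difference was 1.36 ± 0.19 (SE), or 2.56-fold with a 95% interval of 1.89 to 3.46 (adjusted p 0.0049 by limma). Only 0.818% of all tested probe sets had a higher difference. The call held when any 1 heart was omitted (adjusted p 0.0036 to 0.033).

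Cilp encodes a matrix protein named from cartilage that binds transforming growth factor β and is also made by cardiac fibroblasts. It read 7.47, 7.95 and 8.16 in αMHC-Cre hearts, against 6.18, 6.41 and 7.16 in no-Cre hearts. The groups did not overlap, but no-Cre heart 3 stood apart from its group and only 0.32 below the lowest αMHC-Cre heart. Cilp rose by 1.28 ± 0.26 (SE), or 2.43-fold with an interval of 1.62 to 3.65 (adjusted p 0.024 by limma). The call was lost without αMHC-Cre heart 2 (adjusted p 0.11), αMHC-Cre heart 3 (0.068), no-Cre heart 1 (0.066) or no-Cre heart 2 (0.074), with differences of 1.08 to 1.23.

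Comp, a pentameric thrombospondin known from cartilage and tendon that binds collagen fibrils, read 6.30, 5.91 and 6.43 in αMHC-Cre hearts, against 5.47, 5.21 and 4.73 in no-Cre hearts. The groups lay 0.44 apart, and no-Cre heart 3, high for Cilp, was the lowest for Comp. Comp rose by 1.08 ± 0.21 (SE), or 2.11-fold with an interval of 1.53 to 2.91 (adjusted p 0.018 by limma). Its mean in no-Cre hearts, 5.14, lay just under the filter at 5.16, so Comp was tested because it was high in αMHC-Cre hearts. The call was lost without αMHC-Cre heart 1 (adjusted p 0.068) or αMHC-Cre heart 3 (0.056), and with 64 added to the unlogged signal the difference was 0.48 (adjusted p 0.018).

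Fibronectin was represented by a bright and a dim probe set. The brighter one of Fn1 read 8.75, 9.17 and 9.35 in αMHC-Cre hearts, against 8.05, 7.95 and 8.12 in no-Cre hearts. No-Cre hearts were tightly grouped, and the lowest αMHC-Cre heart stood 0.63 above the highest of them. Fn1 rose by 1.05 ± 0.16 (SE), or 2.07-fold with an interval of 1.60 to 2.66 (adjusted p 0.0071 by limma), and kept its call when any 1 heart was omitted (adjusted p 0.0039 to 0.046). The intervals of Postn, Cilp, Comp and Fn1 overlap one another, so the order of their differences is not settled. The dimmer probe set of Fn1, below the filter, read 3.83, 4.36 and 4.52 in αMHC-Cre hearts, against 3.23, 4.09 and 3.74 in no-Cre hearts, with overlapping groups. Its difference of 0.55 ± 0.29 (SE) did not pass in limma's fit of all probe sets (adjusted p 0.53).

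The 4 calls depended on setting dim probe sets aside. When all 45037 probe sets other than controls were fitted together, 0.611% of them were called. In that fit 0 of the 8 genes passed limma's threshold, and 5 had an unadjusted p under 0.05, as did 14.3% of all genes read through their brightest probe set. The adjusted p was 0.095 for Postn, 0.098 for Fn1, 0.17 for Comp and 0.20 for Cilp. In a fit of all those probe sets with 16 added to the unlogged signal, a setting chosen after seeing the data, all 4 were called (adjusted p 0.0030 for Postn, 0.0051 for Fn1, 0.020 for Cilp and 0.020 for Comp).

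Thbs4, a thrombospondin closely related to Comp and known to be induced in the pressure-loaded heart, did not share the difference of Comp. It read 5.86, 6.29 and 6.41 in αMHC-Cre hearts, against 6.30, 6.29 and 6.67 in no-Cre hearts. The groups overlapped, and the lowest heart of all was αMHC-Cre heart 1. Its difference was -0.23 ± 0.17 (SE, adjusted p 0.57 by limma), with a 95% interval from -0.63 to 0.16 that lies wholly below that of Comp, 0.61 to 1.54. Comp passed the filter only through its level in αMHC-Cre hearts, which limits this contrast. With 64 added to the unlogged signal the differences were 0.48 for Comp and -0.13 for Thbs4. Whether the difference of Thbs4 differs from that of Comp was not tested beyond these values.

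Sparcl1, an anti-adhesive protein of the SPARC family, read 11.48, 11.25 and 11.47 in αMHC-Cre hearts, against 11.11, 11.20 and 11.46 in no-Cre hearts. The hearts of both groups were interleaved. The difference was 0.14 ± 0.14 (SE, adjusted p 0.67 by limma), with an interval from -0.16 to 0.45 that lies below the intervals of Postn (0.92 to 1.79), Cilp (0.69 to 1.87), Comp and Fn1 (0.68 to 1.41).

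Tnc, a large hexameric glycoprotein that loosens cell attachment at sites of remodelling, was dim on its brighter probe set. That probe set read 4.38, 4.70 and 4.80 in αMHC-Cre hearts, against 3.77, 4.22 and 3.68 in no-Cre hearts. The groups did not overlap, but were only 0.16 apart. The difference of 0.74 ± 0.20 (SE) did not pass in limma's fit of all probe sets (unadjusted p 0.012, adjusted p 0.23), and it was 0.40 with 16 added to the unlogged signal. The other probe set of Tnc ranged from -8.07 to 1.90 in αMHC-Cre hearts and from -8.58 to 1.19 in no-Cre hearts, a spread that leaves no usable difference.

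Cthrc1, a secreted protein made by activated fibroblasts after injury, was also dim and unsteady. It read 1.78, 3.99 and 4.41 in αMHC-Cre hearts, against 4.09, 2.63 and 3.37 in no-Cre hearts. Both the lowest and the highest reading came from αMHC-Cre hearts. The difference was 0.03 ± 0.79 (SE, adjusted p 0.99 in limma's fit of all probe sets), and its interval of -1.95 to 2.02 excludes neither a rise nor a fall of the size seen for Postn.

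Promoter sequences were available for 5 of the 9 genes in a RefSeq table of build GRCm38.p6. There was none for Fn1, Sparcl1, Cthrc1 and Comp, so Fn1 and Comp, which also rose, could not be searched. The 250 bases before the start are shown for Postn and Cilp, which rose, and for Thbs4, which did not pass. They were picked because Postn and Cilp hold the exact letters TATATAA near the start and Thbs4 does not. Postn has 2 listed starts, and the window shown belongs to the start 1840 bases downstream of the other. It lies at chr3:54360857-54361106 on the plus strand, that of Cilp at chr9:65264930-65265179 on the plus strand, and that of Thbs4 at chr13:92794819-92795068 on the minus strand. All are printed 5′ to 3′, with the letters TATATAA, a form of the TATA box, in capitals.
Postn: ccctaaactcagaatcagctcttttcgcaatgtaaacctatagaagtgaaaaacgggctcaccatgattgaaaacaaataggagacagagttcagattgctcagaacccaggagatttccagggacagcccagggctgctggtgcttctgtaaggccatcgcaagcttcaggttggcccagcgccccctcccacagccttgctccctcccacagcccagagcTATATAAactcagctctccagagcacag
Cilp: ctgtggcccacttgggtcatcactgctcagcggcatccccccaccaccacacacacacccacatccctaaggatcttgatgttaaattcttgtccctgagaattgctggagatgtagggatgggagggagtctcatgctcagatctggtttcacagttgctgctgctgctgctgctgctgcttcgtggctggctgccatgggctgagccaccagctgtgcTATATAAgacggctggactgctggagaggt
Thbs4: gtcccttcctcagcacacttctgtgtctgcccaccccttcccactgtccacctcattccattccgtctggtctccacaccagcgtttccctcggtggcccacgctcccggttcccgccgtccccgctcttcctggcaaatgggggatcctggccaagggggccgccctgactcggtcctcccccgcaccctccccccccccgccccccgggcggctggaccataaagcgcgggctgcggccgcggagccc

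The first letter of TATATAA stood 28 bases before the start in Postn and 30 bases before it in Cilp. It also stood 29 bases before the downstream one of the 2 starts of Tnc. The windows of Thbs4, of both starts of Spp1 and of the other starts of Postn and Tnc held no TATATAA on either strand. Only these exact letters were searched, not other forms of the TATA box. The Thbs4 window reads cataaa at about the place where Cilp has TATATAA, so a lack of TATATAA does not mean a lack of similar letters. Of 32851 windows of this length in the table, 3.04% held TATATAA on either strand, and 0.737% held it with its first letter 20 to 45 bases before the start. The motif was chosen after the sequences were seen. GATAA, the core of sites bound by GATA factors, was searched on both strands as well. It was in 0 of the 3 windows shown and in 22.6% of all windows. CAGAC, a core of sites bound by Smad proteins, was in 42.2% of all windows and had 2 matches in Thbs4 and 0 in the windows shown of Postn and Cilp. It had 1 match at the other start of Postn, 1 at the downstream start of Tnc, and matches at both starts of Spp1. Another motif searched, TGANTCA with N for any base, was in 6.75% of all windows and in 0 of those shown. The matches of these motifs do not overlap in the windows shown, and a match or its absence describes only these letters.

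Within the groups, the same hearts often stood high or low for several genes. αMHC-Cre heart 3 had the highest reading of its group for 7 of the 8 genes, all but Sparcl1, and αMHC-Cre heart 1 the lowest for 6 of the 8. Over all tested genes, αMHC-Cre heart 3 was the highest of its group for 35.9% and αMHC-Cre heart 1 the lowest for 23.7%. Among the 549 genes called higher in αMHC-Cre hearts these shares were 43.5% and 31.9%. Postn and Fn1 tracked each other closely, with a Pearson correlation of 0.99 over the 6 hearts, against 0.96 for Postn and Cilp, 0.81 for Postn and Comp and -0.17 for Postn and Thbs4. These correlations describe 6 points that share the difference between groups, so their order does not describe hearts within a group. Relative to group means, Postn stood at -0.39, 0.01 and 0.38 in αMHC-Cre hearts and at -0.13, -0.07 and 0.20 in no-Cre hearts. Thbs4 ran alongside, at -0.33, 0.10 and 0.23 and at -0.12, -0.13 and 0.25. Comp stood at 0.08, -0.30 and 0.22 and, opposite to Postn in no-Cre hearts, at 0.33, 0.07 and -0.41. The lowest difference of Postn, 1.16, was found without αMHC-Cre heart 3 and the highest, 1.55, without αMHC-Cre heart 1.

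**Figure D2:**
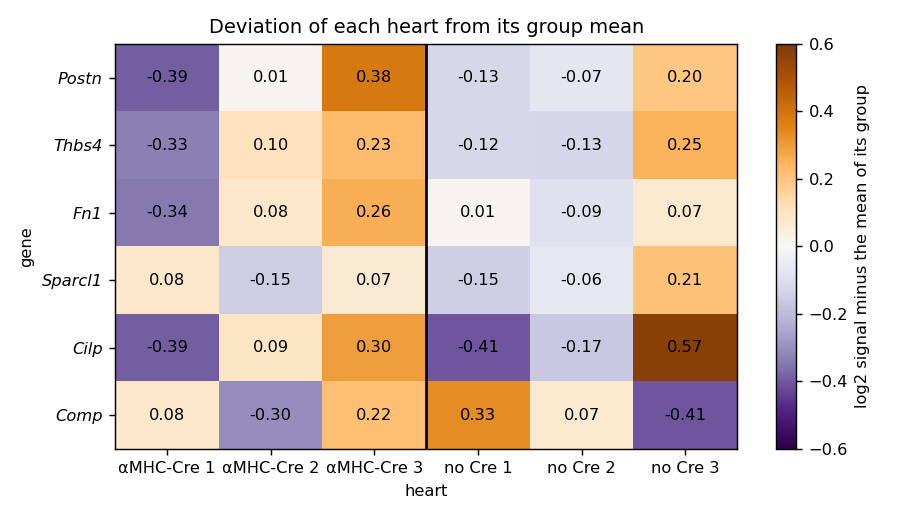
Deviation of each heart (columns) from the mean of its own group, in log2 units, for the 6 tested genes (rows), with orange for readings above and purple for readings below the group mean. αMHC-Cre heart 1 lies 0.33 to 0.39 below its group for Postn, Thbs4, Fn1 and Cilp, and no-Cre heart 3 lies 0.57 above its group for Cilp and 0.41 below it for Comp.

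The genes whose pattern over the 6 hearts was most like the mean of the 6 tested genes, each scaled over the hearts, were Gli2 (Pearson correlation 0.992), Mindy3 (0.991), Plod1 (0.990), Sdc3 (0.989) and Fez2 (0.989). These are the highest correlations among all tested genes outside the set, over 6 points that share the difference between groups, and serve only as a description. Gli2 encodes a transcription factor of hedgehog signalling and Plod1 an enzyme that hydroxylates lysines of collagen. Their differences were 0.60 for Gli2, 0.28 for Mindy3, 0.51 for Plod1, 0.37 for Sdc3 and 0.62 for Fez2, and of these Gli2 and Fez2 passed limma's threshold (adjusted p 0.043 and 0.040).

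Other matricellular genes moved the same way in part. Of 21 listed, 17 were tested, 6 rose, 0 fell and 11 did not pass, with a median difference of 0.29 against -0.01 over all tested genes. Of all tested genes 4.2% rose and 2.04% fell. Ccn4 and Smoc1, among the 6, passed the filter only through their level in αMHC-Cre hearts. So did Thbs1, which was not called and had a no-Cre mean of 5.06. The count and the median include these genes. Ccn4, a secreted target of Wnt signalling, read 6.98, 6.86 and 7.13 in αMHC-Cre hearts, against 4.84, 4.29 and 4.90 in no-Cre hearts. No heart came near the other group, and Ccn4 rose by 2.32 ± 0.18 (SE, adjusted p 0.00020 by limma). The mean of Ccn4 in no-Cre hearts, 4.68, was under the filter, and with 64 added to the unlogged signal its difference was 1.09.

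Smoc1, a calcium-binding protein related to SPARC, rose by 1.19 ± 0.18 (SE, adjusted p 0.0057 by limma), also from a level under the filter in no-Cre hearts (4.94), and with 64 added to the unlogged signal its difference was 0.50. Fstl1, a secreted glycoprotein of the follistatin and SPARC family, rose by 1.17 ± 0.21 (adjusted p 0.012), and Ecm1 by 1.00 ± 0.14 (adjusted p 0.0042). Fstl1 lost its call without αMHC-Cre heart 2 (adjusted p 0.064). The remaining calls, named to complete the count, were Ccn2, known as connective tissue growth factor, and Sparc, a collagen-binding protein of the matrix. Ccn2 read 11.23, 11.50 and 10.90 in αMHC-Cre hearts, against 10.14, 10.32 and 10.20 in no-Cre hearts, and rose by 0.99 ± 0.16 (adjusted p 0.0087). Sparc rose by 0.71 ± 0.14 (adjusted p 0.019). Of the 3 tested probe sets of Sparc, 2 were called higher and 1 differed by -0.38 (adjusted p 0.37), and the gene's call was lost in the mean over them (0.14). It was also lost without αMHC-Cre heart 2 (adjusted p 0.089), αMHC-Cre heart 3 (0.064) or no-Cre heart 1 (0.063).

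Close relatives did not all move together. Among thrombospondins, Thbs1 differed by 0.39 ± 0.15 (SE, adjusted p 0.20) and Thbs2 by -0.18 ± 0.12 (0.51). Thbs3, below the filter, differed by 0.57 ± 0.21 (adjusted p 0.37 in limma's fit of all probe sets), with groups that did not overlap but lay only 0.02 apart. Cilp2, the paralogue of Cilp, differed by -0.01 ± 0.14 (adjusted p 0.98), and Tgfbi, the paralogue of Postn, by 0.02 ± 0.11 (0.96). Ccn5 differed by 1.36 ± 0.38 without passing (adjusted p 0.084), and Vtn, which encodes vitronectin, by -0.58 ± 0.18 (0.12). These relatives were chosen with their values in view.

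**Figure D3:**
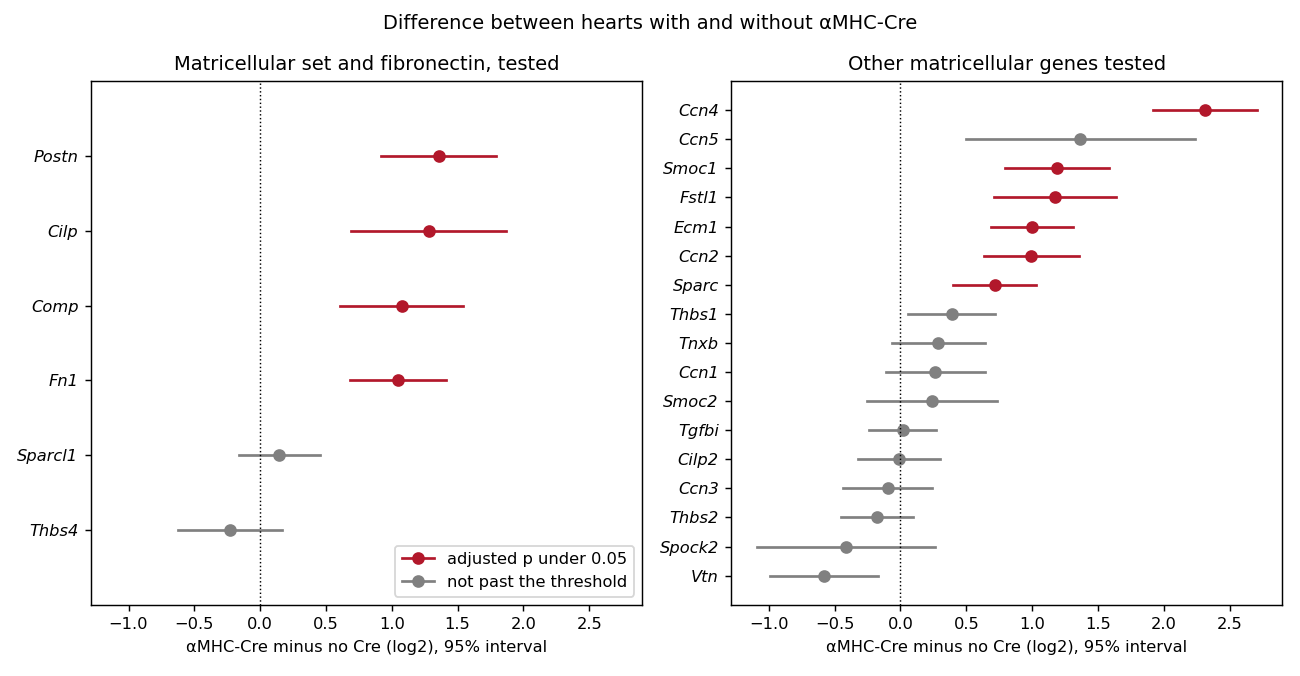
Difference between αMHC-Cre and no-Cre hearts on the log2 scale (horizontal axes) with 95% intervals, for the 6 tested genes of the set (left) and 17 other tested matricellular genes (right). Red marks genes past the threshold; Postn, Cilp, Comp and Fn1 lie between 1.05 and 1.36, and Ccn4 lies highest at 2.32.

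Receptors of these proteins were listed together with intracellular proteins of cell adhesion. Of 21 tested, 4 rose, 0 fell and 17 did not pass, with a median of 0.24. Over all tested genes 4.2% rose and 2.04% fell, with a median of -0.01. The 4 include Itgb8, which passed the filter only through its level in αMHC-Cre hearts. Cd44, a receptor for hyaluronan and osteopontin, read 9.43, 9.14 and 9.16 in αMHC-Cre hearts, against 8.19, 8.03 and 7.91 in no-Cre hearts. The groups were well apart, and Cd44 rose by 1.20 ± 0.13 (SE, adjusted p 0.0014 by limma), with 3 of its 3 tested probe sets called. One of these 3 had a mean of 4.99 in no-Cre hearts, under the filter. Another probe set of Cd44, below the filter, differed by -0.83 (adjusted p 0.39 in limma's fit of all probe sets). Sdc4, a syndecan that acts with integrins in adhesion to fibronectin, rose by 1.15 ± 0.18 (adjusted p 0.0075). Itgb8, the integrin β chain whose dimer with αv binds latent transforming growth factor β, rose by 1.42 ± 0.16 (adjusted p 0.0014) from a level under the filter in no-Cre hearts (4.90), and by 0.62 with 64 added to the unlogged signal.

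Itga9, the α chain of an integrin that binds tenascin C and osteopontin, rose by 0.89 ± 0.21 (SE, adjusted p 0.048 by limma). Of its 3 tested probe sets 2 were called higher, and the other differed by -0.16 (adjusted p 0.60). The call of Itga9 was lost when any heart other than αMHC-Cre heart 1 was omitted (adjusted p 0.060 to 0.12), and with quantile normalization (0.071), arrays centred on their median (0.052), the mean over its probe sets (a difference of 0.60, adjusted p 0.095), no filter (0.25), or no filter with 16 added to the unlogged signal (0.057). The main fibronectin receptor chains were among those that did not pass, with Itga5 at 0.24 ± 0.14 (adjusted p 0.44), Itgb1 at 0.10 ± 0.14 (0.80) and Itgav at 0.15 ± 0.15 (0.69). These chains were chosen with their values in view.

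Among upstream signals and regulators of matrix genes, 2 of 17 tested genes rose and 0 fell, with a median of 0.22. Over all tested genes 4.2% rose and 2.04% fell, with a median of -0.01. Both upstream genes that rose encode proteins that bind latent transforming growth factor β. Ltbp3 rose by 0.79 ± 0.14 (SE, adjusted p 0.015 by limma) and Ltbp4 by 0.59 ± 0.14 (0.040). Ltbp3 lost its call without αMHC-Cre heart 1 (adjusted p 0.057) or αMHC-Cre heart 3 (0.052), and Ltbp4 when any heart other than no-Cre heart 3 was omitted (0.061 to 0.15). The ligand genes differed by 0.10 ± 0.13 for Tgfb1 (adjusted p 0.77), 0.36 ± 0.21 for Tgfb2 (0.44) and 0.61 ± 0.16 for Tgfb3 (0.073). The ligands were also chosen with their values in view. Of the 12 calls in these lists of related genes, those of Ccn4 (adjusted p 0.025), Cd44 (0.042) and Itgb8 (0.048) passed in limma's fit of all probe sets, and the other 9 did not (0.068 for Ecm1 to 0.25 for Itga9).

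Fibroblasts are a main source of these proteins. Of 12 fibroblast markers 6 rose, namely Col1a1, Col3a1, Col1a2, Mfap5, Lum and Dpt, where 4.2% of all tested genes rose. The mean level of all 12 markers was 10.50 to 10.76 in αMHC-Cre hearts, against 9.88 to 10.05 in no-Cre hearts. All 6 that rose encode proteins of the matrix themselves. The other 6 did not pass, but all 12 differences were positive. In limma's fit 9 markers had an unadjusted p under 0.05, including Tcf21, Dcn and Gsn, which were not called. With 9 markers each αMHC-Cre heart read above each no-Cre heart, as in 13.2% of all tested genes. Dcn, which also encodes a matrix protein, differed by 0.33 ± 0.13 (SE, adjusted p 0.24), and Gsn by 0.29 ± 0.11 (0.19). The lineage markers Tcf21 and Pdgfra differed by 0.54 ± 0.18 (SE, adjusted p 0.15) and 0.21 ± 0.12 (0.43). Of 6 tested markers of activated fibroblasts and smooth muscle, only Meox1 rose, by 0.99 ± 0.23 (adjusted p 0.040), and Acta2 differed by 0.80 ± 0.30 (0.20). The part of these cells in the rise of the 4 genes was not tested.

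Markers of other cell types of the apex were read in the same hearts. Of 9 tested markers of macrophages and lymphocytes, 0 passed in limma's fit and 1 had an unadjusted p under 0.05, with a mean level of 7.36 to 7.49 in αMHC-Cre hearts and 7.28 to 7.47 in no-Cre hearts. Of 7 endothelial markers only Vwf rose, where 4.2% of all tested genes did, and the mean level was 9.29 to 9.32 in αMHC-Cre hearts, against 8.99 to 9.21 in no-Cre hearts. Vwf differed by 1.12 and was the only endothelial marker with groups that did not overlap. The others differed by -0.10 for Egfl7 to 0.20 for Pecam1. Atrial markers read 8.04 to 8.43 in αMHC-Cre hearts, against 6.29 to 6.51 in no-Cre hearts, through Myl7 and Nppa, whereas Myl4 differed by -0.02 and Sln and Bmp10 were below the filter. Myl7 differed by 7.30 and Nppa by 2.03. With a no-Cre mean of 3.72, Myl7 passed the filter only through its level in αMHC-Cre hearts. Of 6 markers of tendon, cartilage and valve, tissues rich in Comp and Cilp, 5 were below the filter, and Scx differed by 0.80 ± 0.22 (SE, adjusted p 0.074). Of 4 markers of epicardium and mesothelium 3 were below the filter, and only Upk1b rose, by 0.63 ± 0.15 (adjusted p 0.041). The mean level of the 4 was 2.88 to 5.32 in αMHC-Cre hearts, against 4.71 to 4.95 in no-Cre hearts. The overlap came from αMHC-Cre heart 2 alone, where Msln, below the filter, read -5.56. The 3 markers of Schwann cells and neurons with a probe set read 5.49 to 5.67 in αMHC-Cre hearts, against 5.46 to 5.58 in no-Cre hearts. The part of these cells was not tested.

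**Figure D4:**
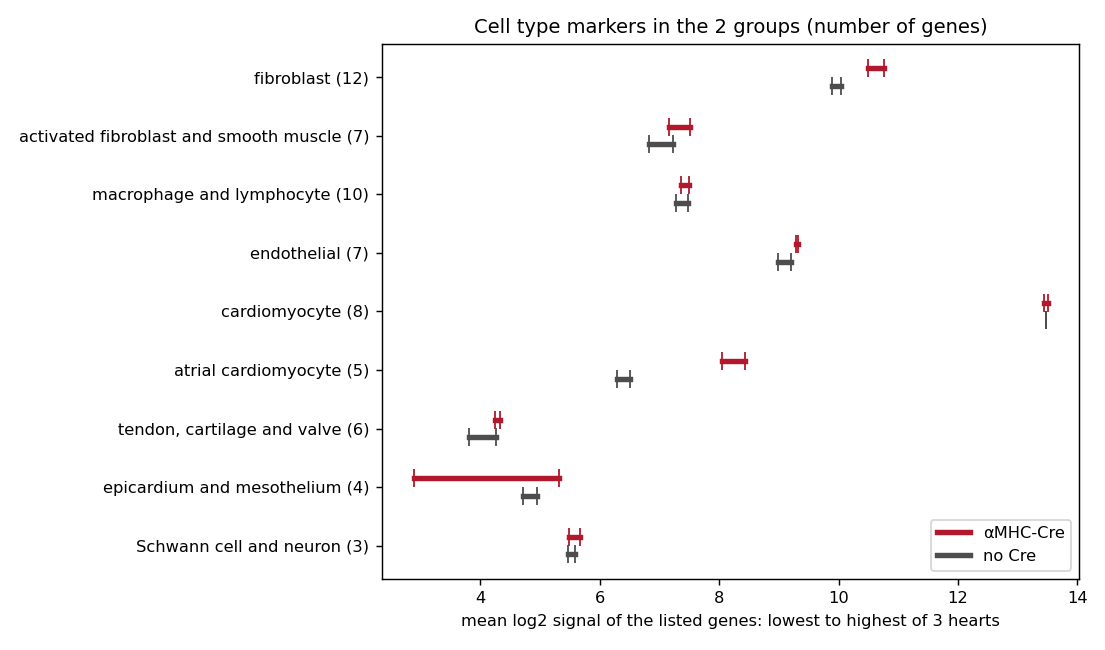
Mean log2 signal of each list of cell type markers (horizontal axis), drawn from the lowest to the highest of 3 hearts, for αMHC-Cre hearts (red, upper) and no-Cre hearts (grey, lower), with the number of genes in brackets. The groups are apart for fibroblast markers (10.50 to 10.76 against 9.88 to 10.05) and also for atrial and endothelial markers, and overlap for the other lists. Of the endothelial genes only Vwf had groups that did not overlap, and the atrial gap came through Myl7 and Nppa. For epicardium and mesothelium the overlap comes from αMHC-Cre heart 2 alone, where Msln read -5.56.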

How the data were processed

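RNA of the heart apex from 6 mice was isolated with Trizol followed by RNeasy columns and hybridised to Affymetrix arrays, per the labels' protocols. The values that the authors deposited are log2 signals, 1 for each probe set on each array. They were computed with PLIER, which summarises the probes of a set, per the submitters' processing notes. The sources used here give neither its settings nor a normalization between arrays. Base 2 is an inference from array maxima of 13.97 to 14.00. Between 749 and 902 values per array are below 0, so differences of dim probe sets are unsteady. Of 45101 probe sets, 64 controls and the dimmest 40% of the rest by mean (18015) were set aside, and 27022 were tested. Array medians differed by less than 0.1, so no further normalization was applied. The groups were compared by limma (version 3.58.1, R 4.3.3, lmFit with eBayes, no covariates, two-sided p-values), with adjustment over all tested probe sets. Dim genes were read from the same fit of all 45037 probe sets other than controls. The number of arrays limits the precision.

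Symbols came from the platform annotation, with 1 symbol for 34945 probe sets, several for 932 and none for 9160. By Entrez number 34741 were found in a RefSeq table of GRCm38.p6. The probe set with the highest mean stands for a gene. The genes and lists were chosen with earlier results of these data known. Named genes are the set itself, Zfpm2, up to 4 called genes per related list by size of difference, and the 5 genes most like the set. The text says where other genes were picked with their values in view. The procedure was tested on simulated data. Alternatives were other normalizations, filters, variance settings, weights, pseudocounts, thresholds, a replicate block and leaving out each heart.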

Additional observations from a re-analysis of the deposited data

How the results depend on the processing

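The 4 calls among the 6 tested genes came out as 4 under quantile normalization, median centring, trend and robust variance, array weights, 16 or 64 added to the unlogged signal and the mean over probe sets. They were 3 with 60% of probe sets left out, where Comp was no longer tested. Without a filter there were 0 calls for genes of the set (0 of its probe sets), 3 in the related lists in place of 12, and 275 in place of 1412 over all probe sets. With 16 added as well, chosen after seeing the data, there were 4, 11 and 1474. At an adjusted p under 0.01 there were 2, 7 and 529 calls, and under 0.1 there were 2220 over all probe sets. Leaving out 1 heart gave 2 to 4 calls for the set and for its probe sets, 8 to 12 in the related lists and 600 to 1075 over all probe sets. The lowest counts were 2 for the set without αMHC-Cre heart 3 and 600 over all probe sets without αMHC-Cre heart 2, and 913 were called without no-Cre heart 1, 923 without αMHC-Cre heart 1 and 905 without αMHC-Cre heart 3. The cause of these shifts was not tested.

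Deviations of same-numbered hearts from their group means correlated at -0.06, 0.21 and -0.19, against -0.20 to 0.27 for hearts with other numbers. The labels do not say whether the numbers pair hearts, and with 3 hearts per group these values cannot settle it. With the replicate number as a block, 909 probe sets and 3 genes of the set were called, and Comp (adjusted p 0.059), Itga9 (0.072) and Ltbp4 (0.0501) did not pass. The difference of Cthrc1 was -0.47 to 0.84 when 1 heart was left out. It reversed to -0.27 without αMHC-Cre heart 2, -0.47 without αMHC-Cre heart 3 and -0.33 without no-Cre heart 2. Of the 20 genes recomputed, 369 values in all, no other changed direction. The low signal of Tnc and Cthrc1 limits what can be said of them.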
